A study of Homo sapiens with 12 samples.

Results

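The genes described here were 38 genes of glycolysis and of the transcriptional response to low oxygen, followed in LNCaP cells after depletion of BRG1, the ATPase of the SWI/SNF chromatin remodelling complex that is encoded by SMARCA4. They were taken by gene symbol from the 63568 genes of the expression table, and all 38 were found. There were 16 glycolytic enzymes, 19 other targets of the hypoxia response and 3 subunits of the hypoxia-inducible factor (HIF). LNCaP is an androgen-sensitive cell line derived from a lymph node metastasis of prostate cancer. The cells had been transfected with a non-targeting siRNA pool (si-NT, named Scrambled in the table) or with 1 of 2 different SMARCA4 siRNAs, and RNA was collected for sequencing 72 h or 144 h after the first transfection. The cells of the 144 h time point were harvested at 72 h, split into new wells and transfected again, and this held for si-NT and depleted cells alike. Each siRNA had 2 libraries at each time point, giving 12 libraries, and the BRG1 depleted group of a time point held the 4 libraries of the SMARCA4 siRNAs together. The siRNAs are named 2 and 3, as in the expression table, and neither the labels nor the table state that replicates came from separate cultures, so p-values measure only the spread between these libraries.

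Glycolysis breaks glucose down to pyruvate in the cytosol, and lactate dehydrogenase turns pyruvate into lactate. Cells raise this pathway when oxygen is short, because HIF, a dimer of an oxygen-labile alpha subunit and the stable partner ARNT, binds short DNA elements near the genes of most glycolytic enzymes and of glucose and lactate transporters. The same factor drives genes outside glycolysis, for blood vessel growth (VEGFA), pH control (CA9), mitochondrial turnover (BNIP3, BNIP3L) and its own degradation (EGLN1, EGLN3).

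The core of the element bound by HIF is ACGTG or GCGTG. To show it in both kinds of gene, promoters that hold ACGTG are printed for LDHA and PGK1, which encode glycolytic enzymes, and for BNIP3 and ANKRD37, which do not, and capitals mark ACGTG on either strand. The windows hold no exon of their gene in GENCODE release 44, and those of PGK1 and ANKRD37 are intronic to longer annotated transcripts of the gene. The sequences are from RefSeq (GRCh38.p14) and the coordinates are those of an exact match on GRCh37.
LDHA (chr11:18415860-18416106, + strand): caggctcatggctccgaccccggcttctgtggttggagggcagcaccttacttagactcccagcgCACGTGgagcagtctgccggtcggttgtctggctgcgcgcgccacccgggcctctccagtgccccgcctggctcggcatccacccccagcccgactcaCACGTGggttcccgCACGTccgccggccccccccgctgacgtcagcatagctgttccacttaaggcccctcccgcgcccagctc
PGK1 (chrX:77359495-77359744, + strand): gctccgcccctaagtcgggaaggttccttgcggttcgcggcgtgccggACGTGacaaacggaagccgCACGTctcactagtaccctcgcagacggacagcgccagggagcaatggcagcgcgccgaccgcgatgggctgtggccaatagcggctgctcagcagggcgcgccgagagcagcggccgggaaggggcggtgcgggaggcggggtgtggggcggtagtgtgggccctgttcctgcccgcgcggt
BNIP3 (chr10:133795472-133795677, - strand): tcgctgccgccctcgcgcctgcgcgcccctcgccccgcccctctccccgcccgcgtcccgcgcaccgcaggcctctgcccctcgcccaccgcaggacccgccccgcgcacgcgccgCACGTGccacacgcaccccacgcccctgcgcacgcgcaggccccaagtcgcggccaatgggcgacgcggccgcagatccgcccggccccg
ANKRD37 (chr4:186317745-186317964, + strand): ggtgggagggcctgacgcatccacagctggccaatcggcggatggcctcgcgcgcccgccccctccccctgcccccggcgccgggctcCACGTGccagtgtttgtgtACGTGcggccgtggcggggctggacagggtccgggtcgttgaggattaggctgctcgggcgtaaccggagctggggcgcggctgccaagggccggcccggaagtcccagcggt
Counting each strand, ACGTG began at 5 places in the LDHA window, at 3 in the ANKRD37 window and at 2 in both the PGK1 and the BNIP3 window. A CACGTG hexamer reads the same on both strands and gives 2 of these overlapping starts. For the counts, RefSeq promoter windows from 250 bases before the start into the first bases of the gene were found for 34 of the 38 members, some with more than 1 window, and VEGFA, HILPDA, NDRG1 and BNIP3L had none. ACGTG was present on at least 1 strand of a window for 10 of 16 enzymes (62.5%), for 9 of 15 other targets (60%) and for 0 of 3 HIF subunits. Of all 27305 genes with windows, 24.9% held these letters. Members had more windows each, and per window ACGTG was found in 38.9% of those of enzymes, 40.9% of those of other targets and 21.4% of all. ACGTG or GCGTG was found in 66.1% of 62 member windows and in 48.4% of all 35116 windows. These are matches of letters only, and binding was not measured.

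Values are TPM, the abundance of a gene's transcripts scaled to gene length and to a fixed total per library. They keep no read depth, so the counting error is unknown and precision was judged from replicates. SMARCA4 itself ran from 73.44 to 106.59 TPM across the si-NT libraries and from 11.42 to 21.7 TPM across the depleted ones, with no overlap. Its log2 fold change was -2.07 ± 0.16 (SE) at 72 h and -2.66 ± 0.16 at 144 h. All 7 markers of LNCaP examined had a mean of 49.8 to 516 TPM. Of 10 markers of basal, stromal, immune and endothelial cells, 1 (COL1A1) had a mean above 1 TPM, and their summed level was 4.04 to 9.79 TPM in a library. Spike-in RNA made up 0.805% to 1.97% of TPM and mitochondrially encoded RNA 12.7% to 16.6%. In bulk RNA, fewer cells of a kind and less RNA per cell cannot be told apart.

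For these genes the libraries of si-NT at 144 h differed from each other, and so did the depleted libraries of 72 h. Replicate 2 of si-NT at 144 h had the lowest TPM of the 4 si-NT libraries for 16 of the 18 other targets tested, against 28.2% of all genes tested. It was also the lowest for 11 of 16 enzymes. NDRG1, a stress-responsive differentiation gene, had 136.12 and 198.76 TPM in si-NT at 72 h, 126.64 TPM in replicate 1 at 144 h and 25.34 TPM in replicate 2 at 144 h. BNIP3, a mitophagy receptor, had 314.62, 322.18, 268.09 and 130.02 TPM in the same order, and SLC16A3, a lactate exporter also named MCT4, had 17.72, 24.16, 16.72 and 5.87 TPM. For all 3 genes the last library lay below the range of the other si-NT libraries. EGLN3 and HILPDA were the exceptions among the targets, with 19.5 against 18.41 to 23.7 TPM and 34.74 against 31.52 to 45.52 TPM. The spike-in share of this library was 1.34%, against 0.805% to 1.1% in the other si-NT libraries, and its part in the low values was not tested.

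At 72 h, replicate 2 of siRNA 2 had the highest TPM of the 4 depleted libraries for 17 of 18 other targets and 13 of 16 enzymes, against 44.1% of all genes tested. Replicate 1 of the same siRNA, or replicate 2 of siRNA 3, was the lowest for 17 of 18 targets, against 66.5% of all genes. The median of the other targets, as log2(TPM + 1) relative to each gene's mean over the 12 libraries, was -0.48 and 0.76 in the replicates of siRNA 2 and 0.35 and -0.27 in those of siRNA 3. In the si-NT libraries of 72 h this median was 0.48 and 0.71. The mitochondrially encoded share was 16.6% in replicate 2 of siRNA 2 and 12.8% to 14% in the other 3 depleted libraries of 72 h, and its part was not tested. At 144 h the 4 depleted libraries lay close together, with medians between -0.53 and -0.34.

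**Figure D1:**
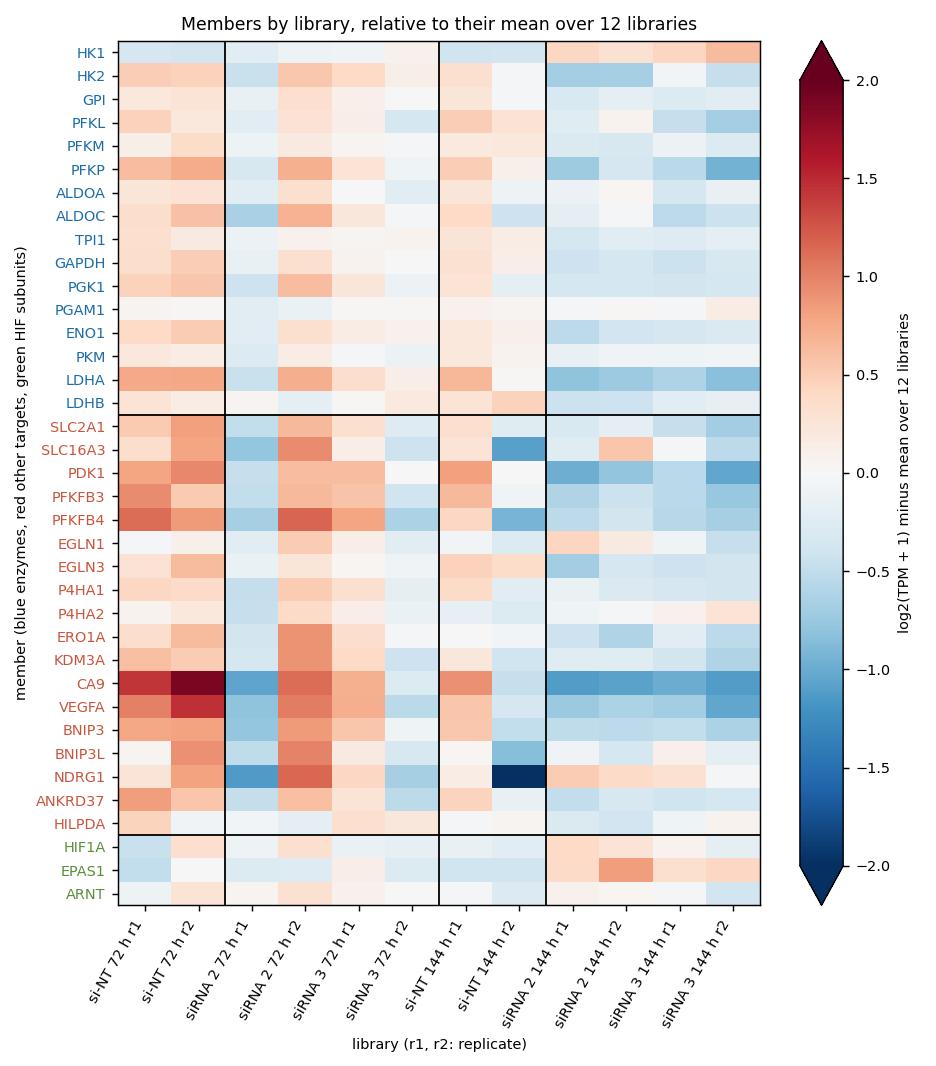
Heat map of log2(TPM + 1) of the 37 tested members, relative to each gene's mean over the 12 libraries, with enzymes (blue names), other hypoxia targets (red) and HIF subunits (green) as rows and libraries as columns. The other targets run from red to blue within si-NT at 144 h and within the depleted libraries at 72 h, whereas the 4 depleted libraries at 144 h are nearly uniformly blue for enzymes and for most targets, with HK1, EPAS1 and NDRG1 among the exceptions.

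The spread between libraries differed between the 2 kinds of gene. The residual SD of log2(TPM + 1) over the 4 groups had a median of 0.15 for the 16 enzymes and 0.42 for the 18 other targets, against 0.19 for all 16337 genes tested. Of the targets, 17 lay above the median of all genes. The widest was NDRG1 at 0.87, followed by CA9 at 0.7, and EGLN3 at 0.17 was the one below the median. Among enzymes the spread ran from 0.09 for TPI1 and PGAM1 to 0.42 for ALDOC, and LDHA stood at 0.35. The enzymes were also far more abundant, with a median level of 547 TPM against 21.3 TPM for the targets. ADM, a secreted vasodilator peptide, was listed at 0.17 to 0.83 TPM in every library and was under the limit of 1 TPM in 2 libraries required for testing, so 37 members were tested.

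At 72 h of depletion most members had lower mean levels than si-NT, but none passed the test. Of the 37 members, 0 had an adjusted p under 0.05 in limma, while 1.68% of all genes tested were called. An unadjusted p under 0.05 was found for 11 of the 37 members and for 14.3% of all genes. The fold change was below 0 for 15 of 16 enzymes and for 17 of 18 other targets, against 39.7% of all genes. Its median was -0.31 for the enzymes and -0.59 for the targets, against 0.06 for all genes. With the replicate 2 library of siRNA 2 left out, 1 member was called (GAPDH, log2 fold change -0.45), and 144 of 16215 genes were. That library had the highest GAPDH of the depleted libraries of 72 h, so leaving it out favours a lower call.

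Single members varied widely among the depleted libraries of 72 h. CA9, the cell surface carbonic anhydrase, had 4.84 and 6.99 TPM in si-NT and 0.04, 3.68, 2.55 and 0.79 TPM in the depleted libraries (siRNA 2 and then siRNA 3). VEGFA, the vascular growth factor, had 107.52 and 147.41 TPM in si-NT and 30.1, 109.13, 89.08 and 36.34 TPM after depletion. For CA9 the groups did not overlap, whereas for VEGFA 1 depleted library lay inside the si-NT range. The log2 fold changes were -1.53 ± 0.52 (SE, adjusted p = 0.186, limma) for CA9 and -1.12 ± 0.45 (adjusted p = 0.272, limma) for VEGFA. All 4 depleted libraries lay below both si-NT libraries for 7 of 37 members (CA9, EGLN3, ENO1, GAPDH, LDHA, PDK1 and TPI1), against 6.93% of all genes, and all 4 lay above for HK1 alone, against 16.3%.

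At 144 h more enzymes of glycolysis were lower than higher after BRG1 depletion, and hexokinase 1 was the one called higher. Of the 37 members tested, 13 passed at an adjusted p under 0.05 in limma, against 24.4% of all genes tested. Of the 16 enzymes, 9 were lower, where 10.8% of all genes were, and 1 was higher, where 13.6% were. Of the 18 other hypoxia targets, 2 were lower (PDK1 and EGLN3) and none higher, and of the HIF subunits EPAS1 was higher. The median log2 fold change was -0.45 for the enzymes, -0.39 for the other targets and 0.026 for all genes. With si-NT replicate 1 or replicate 2 of 144 h left out, 1 control library remained. Fewer enzymes were then called lower and fewer members were called, and fewer of all genes were called as well. Without replicate 1 the share of members called was near that of all genes, and without replicate 2 it stayed above it. The 9 enzymes kept fold changes below 0 in both fits, from -0.77 to -0.23 without replicate 1 and from -1.41 to -0.44 without replicate 2. After scaling to the spike-ins, which moved the median of all genes to -0.31, 4 enzymes were lower (PFKP, GAPDH, LDHA and LDHB), 0 members were higher, and PDK1 and EGLN3 kept their calls. Of all 16337 genes tested, 752 were called with this scaling, against 3983 without it.

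LDHA showed the largest fall among the enzymes. It encodes the muscle-type subunit of lactate dehydrogenase, which favours the making of lactate (ENSG00000134333.9, chr11:18416107-18429972, + strand, GRCh37). LDHA had 1208.22 and 777.35 TPM in si-NT and 435.17, 463.33, 498.83 and 425.17 TPM after depletion at 144 h. The 4 depleted libraries lay below both si-NT libraries, and below both si-NT libraries of 72 h (1296.33 and 1302.9 TPM). The log2 fold change was -1.09 ± 0.26 (SE, adjusted p = 0.0109, limma). It was -1.41 with the low si-NT library left out and -0.77 with the other si-NT library left out, where its adjusted p rose to 0.134. LDHB, the heart-type subunit, had 1342.84 and 1532.31 TPM in si-NT and 829.31, 832.2, 953.69 and 991.67 TPM after depletion. The groups did not overlap for LDHB either, the log2 fold change was -0.67 ± 0.12 (adjusted p = 0.00257, limma), and the second si-NT library was here the higher of the pair. Without that library the log2 fold change of LDHB was -0.58 and the call was lost, and without the other it was -0.77. The ratio of LDHA to LDHB was 0.9 and 0.507 in si-NT and 0.429 to 0.557 after depletion, so the groups overlapped for the ratio.

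GAPDH, the dehydrogenase of the middle of the pathway and a gene often taken as constant (ENSG00000111640.10, chr12:6643678-6647540, + strand, GRCh37), had 4740.29 and 4202.28 TPM in si-NT and 2846.59 to 3078.23 TPM in the 4 depleted libraries at 144 h. The groups were well apart, and the log2 fold change was -0.6 ± 0.12 (adjusted p = 0.00428, limma). ENO1, the main enolase, had 2090.16 and 1949.88 TPM in si-NT and 1256.36 to 1474.45 TPM after depletion. TPI1, which interconverts the triose phosphates, had 755.32 and 696.09 TPM in si-NT and 495.98 to 557.93 TPM after depletion. Their log2 fold changes were -0.54 ± 0.13 (adjusted p = 0.0117, limma) and -0.45 ± 0.09 (adjusted p = 0.00426, limma). For all 3 of these abundant enzymes the lowest si-NT library remained above the highest depleted library. Without si-NT replicate 1 of 144 h none of them passed (adjusted p = 0.0606 for GAPDH and TPI1 and 0.099 for ENO1, limma), and ENO1 also did not pass without replicate 2 (0.07) or with quantile normalisation (0.0711).

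All 3 genes of phosphofructokinase, the committed step of glycolysis, were lower. PFKP, the platelet-type subunit, had 91.88 and 69.4 TPM in si-NT and 39.01, 50.87, 44.15 and 33.24 TPM after depletion, a log2 fold change of -0.93 ± 0.25 (adjusted p = 0.0201, limma). PFKL, the liver type, had 87.29 and 75.82 TPM in si-NT and 38.01 to 64.65 TPM after depletion, a log2 fold change of -0.72 ± 0.21 (adjusted p = 0.0297, limma). PFKM, the muscle type, had 139.5 and 141.37 TPM in si-NT and 97.63 to 112.54 TPM after depletion, a log2 fold change of -0.45 ± 0.1 (adjusted p = 0.00932, limma). In none of the 3 did a depleted library reach the si-NT range. GPI, the isomerase of the second step, had 781.92 and 648.75 TPM in si-NT and 534.61 to 577 TPM after depletion. Its adjusted p of 0.0494 (limma) was close to the limit, with a log2 fold change of -0.36 ± 0.12. The call was lost with no filter, quantile normalisation, spike-in scaling, 6 groups and no trend (adjusted p = 0.107, 0.154, 0.14, 0.0675 and 0.0716, limma). It was also lost in 10 of 12 fits with a library left out, those without a si-NT library of 144 h among them. Without si-NT replicate 1 or replicate 2 of 144 h, PFKP (adjusted p = 0.171 and 0.0627), PFKL (0.184 and 0.11) and PFKM (0.0627 and 0.0875) did not pass in limma either. PFKP and PFKL also did not pass with no filter (adjusted p = 0.0545 and 0.0741, limma). The call of PFKL was lost as well without siRNA 3 replicate 1 or replicate 2 of 144 h (adjusted p = 0.0586 and 0.059, limma).

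HK1, which encodes the hexokinase found in most tissues and bound to mitochondria (ENSG00000156515.17, chr10:71029740-71161640, + strand, GRCh37), changed in the opposite direction. HK1 had 74.88 and 76.47 TPM in si-NT at 144 h and 131.87, 122.25, 133.65 and 153.46 TPM after depletion. The si-NT libraries of 72 h were at 77.73 and 76.63 TPM, so the 4 control libraries spanned a narrow range and all depleted libraries of 144 h lay above it. The log2 fold change was 0.83 ± 0.11 (adjusted p = 0.000441, limma). Scaled to the spike-ins it was 0.42, or 0.74 relative to the median of all genes, and did not pass (adjusted p = 0.378, limma). HK2, the hexokinase that HIF induces, had 30.37 and 23.81 TPM in si-NT and 14.73, 14.77, 23.15 and 17.31 TPM after depletion. Its groups did not overlap, but its log2 fold change of -0.62 ± 0.25 did not pass (adjusted p = 0.0926, limma). The ratio of HK1 to HK2 was 2.28 to 3.21 in the 4 si-NT libraries, 2.59 to 4.8 in the depleted libraries of 72 h and 5.77 to 8.95 in those of 144 h, with no test on the ratio.

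The remaining 5 enzymes did not pass at 144 h. PGAM1, a phosphoglycerate mutase, had 481.97 and 471.11 TPM in si-NT and 443.36 to 506.74 TPM after depletion, a log2 fold change of -0.039 with a 95% interval from -0.23 to 0.16. PKM (pyruvate kinase) and PGK1 (phosphoglycerate kinase) were below both si-NT libraries in every depleted library, with log2 fold changes of -0.24 ± 0.1 (adjusted p = 0.116, limma) and -0.41 ± 0.22 (adjusted p = 0.206, limma). PGK1 passed with the 6 libraries of the time point alone (adjusted p = 0.0475, limma). The aldolases ALDOA and ALDOC had log2 fold changes of -0.21 and -0.28, and their si-NT replicate 2 lay within the depleted range. Counted over the pathway, all 4 depleted libraries lay below all 4 si-NT libraries for 12 of 16 enzymes, against 12.7% of all genes. They lay below both si-NT libraries of 144 h for the same 12 enzymes and for 7 of 18 other targets, against 22.5% of all genes.

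**Figure D2:**
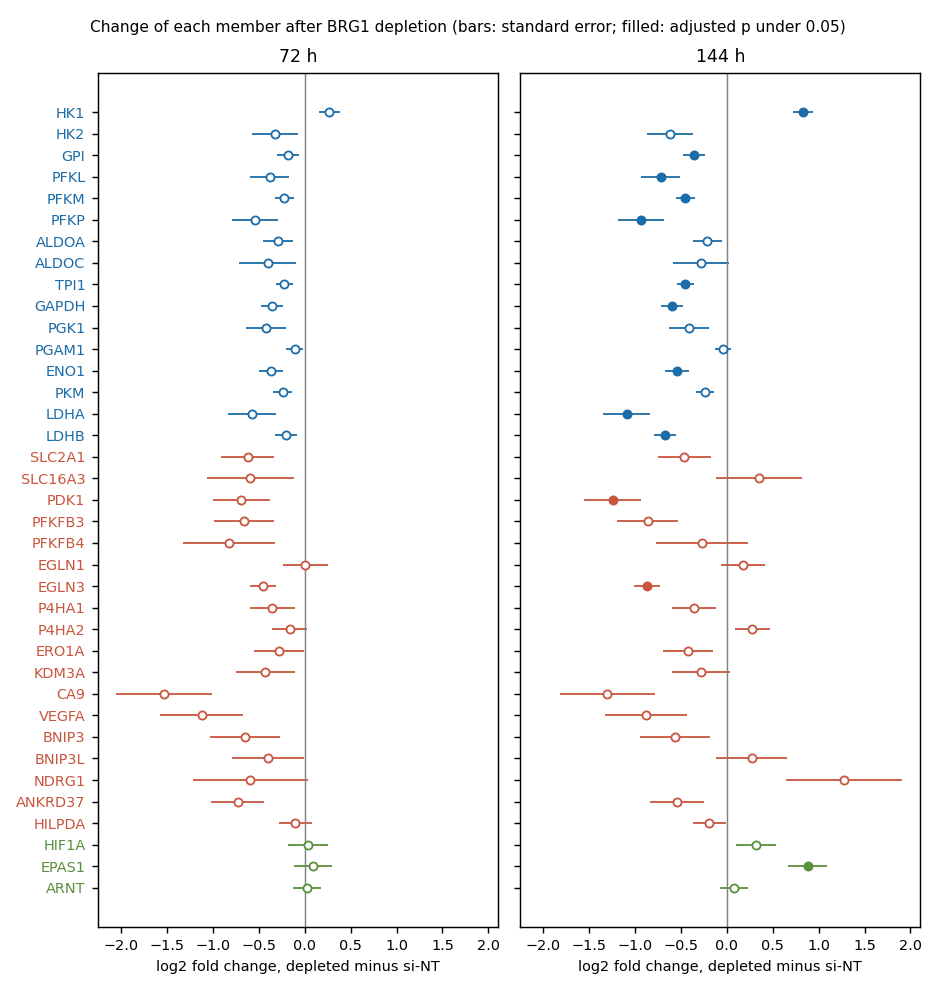
Log2 fold change of each tested member (BRG1 depleted minus si-NT, log2(TPM + 1) scale) at 72 h (left) and 144 h (right), with bars of 1 standard error and filled points for an adjusted p under 0.05 in limma. Blue points are enzymes, red points other targets and green points HIF subunits. No point is filled at 72 h, and at 144 h the 13 filled points are 10 enzymes, PDK1, EGLN3 and EPAS1, while the bars of the red points are mostly the longer ones.

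Of the 18 other targets tested, 2 passed at 144 h, both lower, a share near the 10.8% of all genes that were called lower. These 2 belong to pyruvate use and to oxygen sensing. PDK1 encodes a kinase that shuts off pyruvate dehydrogenase (ENSG00000152256.9, chr2:173420101-173473397, + strand, GRCh37). It had 18.76 and 10.11 TPM in si-NT and 4.68, 5.49, 6.7 and 4.43 TPM after depletion. Its log2 fold change was -1.24 ± 0.31 (adjusted p = 0.0134, limma), and it was -0.83 (adjusted p = 0.164, limma) with si-NT replicate 1 left out. EGLN3, a prolyl hydroxylase that marks HIF alpha subunits for destruction and is itself a HIF target (ENSG00000129521.9, chr14:34393433-34931980, - strand, GRCh37), had 20.81 and 19.5 TPM in si-NT and 8.77, 11.52, 10.85 and 11.26 TPM after depletion. Its log2 fold change was -0.87 ± 0.14 (adjusted p = 0.00184, limma), and it stayed between -0.92 and -0.79 whichever library was left out, with its call kept. Both genes were below every si-NT library of either time point in all 4 depleted libraries. EGLN1, the main oxygen-sensing hydroxylase, had 32.25 and 27.63 TPM in si-NT and 24.13 to 45.49 TPM after depletion, and the groups overlapped.

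Of the genes for glucose and lactate handling, PFKFB3, which makes the allosteric activator of phosphofructokinase, had 19.28 and 11.2 TPM in si-NT and 6.72 to 8.64 TPM after depletion. Its log2 fold change of -0.86 ± 0.33 did not pass (adjusted p = 0.0762, limma), although the groups did not overlap. It passed with median-of-ratios factors, quantile normalisation or the 6 libraries of the time point alone (adjusted p = 0.0453, 0.0424 and 0.0227, limma). SLC2A1, the glucose transporter GLUT1, had 42.53 and 28.25 TPM in si-NT and 20.31 to 29.35 TPM after depletion, and PFKFB4 had 18.85 and 6.81 TPM against 8.4 to 10.58 TPM. In both, si-NT replicate 1 lay above the depleted libraries and replicate 2 within or below them. SLC16A3 had a log2 fold change of 0.35 ± 0.47 (adjusted p = 0.635, limma), with si-NT replicate 2 below all 4 depleted libraries (9.16 to 20.56 TPM).

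The matrix, redox and chromatin enzymes gave no call at 144 h in the main fit. P4HA1 and P4HA2, collagen prolyl hydroxylases, had log2 fold changes of -0.36 ± 0.24 and 0.28 ± 0.19. ERO1A, an oxidase of the endoplasmic reticulum, was at 22.22 and 21.17 TPM in si-NT and 14.25 to 18.63 TPM after depletion, a log2 fold change of -0.42 ± 0.27. It passed with the 6 libraries of the time point alone (adjusted p = 0.0482, limma). KDM3A, a histone demethylase, had a log2 fold change of -0.28 ± 0.32. The adjusted p of these 4 genes ran from 0.281 to 0.565 in limma.

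The secreted, surface and stress genes held the widest differences between control libraries. CA9 had 3.07 and 0.57 TPM in si-NT at 144 h and was listed at 0, 0.03, 0.08 and 0 TPM after depletion, below every si-NT library. Its log2 fold change was -1.3 ± 0.52 (adjusted p = 0.0918, limma), and with a pseudocount of 0.1 it was -3.56 and passed (adjusted p = 0.0338, limma). VEGFA had 78.94 and 41.72 TPM in si-NT and 31.56, 34.09, 32.4 and 25.41 TPM after depletion, a log2 fold change of -0.88 ± 0.45 (adjusted p = 0.183, limma). It passed with the 6 libraries of the time point alone (adjusted p = 0.0341, limma). BNIP3 had 268.09 and 130.02 TPM in si-NT and 129.47, 128.34, 130.33 and 118.68 TPM after depletion, so replicate 2 of si-NT lay within the depleted range. NDRG1 had 126.64 and 25.34 TPM in si-NT and 161.54, 148.65, 141.19 and 111.67 TPM after depletion. Its log2 fold change of 1.28 ± 0.63 (adjusted p = 0.169, limma) was 0.14 without si-NT replicate 2 and 2.42 (adjusted p = 0.0395, limma) without si-NT replicate 1. BNIP3L, a relative of BNIP3, ANKRD37, an ankyrin repeat protein, and HILPDA, which slows the breakdown of lipid droplets, had log2 fold changes of 0.27, -0.54 and -0.19, and none passed.

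**Figure D3:**
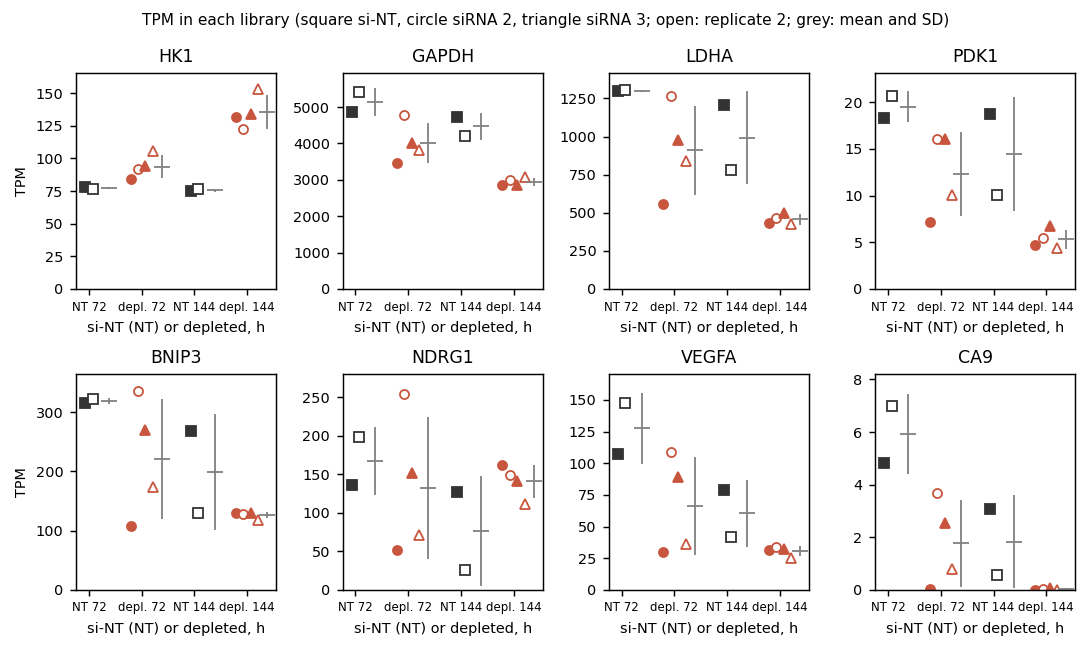
TPM of 8 members in each library, in 4 groups (NT, si-NT; depl., BRG1 depleted; time in h), with squares for si-NT, circles for siRNA 2, triangles for siRNA 3, open symbols for replicate 2 and grey marks for the mean and SD. HK1 rises and GAPDH, LDHA and PDK1 fall to a tight cluster in the depleted libraries of 144 h, while the open square of si-NT at 144 h sits at the depleted level for BNIP3 and below it for NDRG1.

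None of the HIF subunits was called lower, although HIF1A and ARNT had log2 fold changes of -0.08 and -0.3 once scaled to the spike-ins, or 0.23 and 0.0094 relative to the median of all genes. HIF1A, the main oxygen-labile subunit, had 65.03 and 61.7 TPM in si-NT at 144 h and 62.53 to 95.4 TPM after depletion, a log2 fold change of 0.32 ± 0.22 (adjusted p = 0.321, limma). Transcript level is not the level at which oxygen acts on this protein. EPAS1, which encodes HIF-2 alpha (ENSG00000116016.9, chr2:46520806-46613836, + strand, GRCh37), had 0.52 TPM in both si-NT libraries and 1.6, 2.57, 1.48 and 1.67 TPM after depletion. The log2 fold change was 0.88 ± 0.21 (adjusted p = 0.0109, limma), at a low level where the pseudocount of 1 understates the change. All depleted libraries of 144 h lay above the 4 si-NT libraries for EPAS1, as for 17.2% of all genes, and the call was lost without either si-NT library of 144 h (adjusted p = 0.0722 and 0.0875, limma). ARNT had 22.07 and 18.56 TPM in si-NT and 17.19 to 24.2 TPM after depletion, and the groups overlapped.

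How the enzymes compared with the other targets at 144 h depended on which control libraries were used. Replicate 2 of si-NT at 144 h lay at or below the highest depleted library for 11 of 18 targets and for 4 of 16 enzymes, against 71.2% of all genes. Between the si-NT time points, 0 of 37 members and 0 of 16337 genes differed in limma, and 1 member and 671 genes had an unadjusted p under 0.05. All 18 targets and 13 of 16 enzymes were lower at 144 h on average, against 49.7% of all genes. When all 4 si-NT libraries were taken as 1 control group, 23 of 37 members were called at 144 h, against 30.7% of all genes. These were 12 enzymes and 9 other targets that were lower, where 13.6% of all genes were lower, with HK1 and EPAS1 higher. When the low library was left out of that control group, a choice made after seeing the data, 28 of 37 members were called, against 24.4% of all genes. The lower members were then 14 of 16 enzymes and 12 of 18 targets, where 10.3% of all genes were lower. That library was left out because these genes were low in it, so more lower calls follow from the choice, and the values against the 3 libraries are given as a description only.

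Against these 3 si-NT libraries the median log2 fold change was -0.63 for the enzymes, -0.87 for the other targets and 0.013 for all genes. CA9 had a log2 fold change of -2.48, VEGFA of -1.78 and BNIP3 of -1.24. The targets not called were BNIP3L, EGLN1, HILPDA, NDRG1, P4HA2 and SLC16A3, and the one enzyme was PGAM1. NDRG1 had a log2 fold change of -0.11 in this comparison, in place of 1.28. Time and control group are mixed in both of these combined comparisons, and at 72 h they called 1 member (EGLN3) with 4 si-NT libraries, against 7.38% of all genes, and 0 members in limma with 3, against 3.41%.

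**Figure D4:**
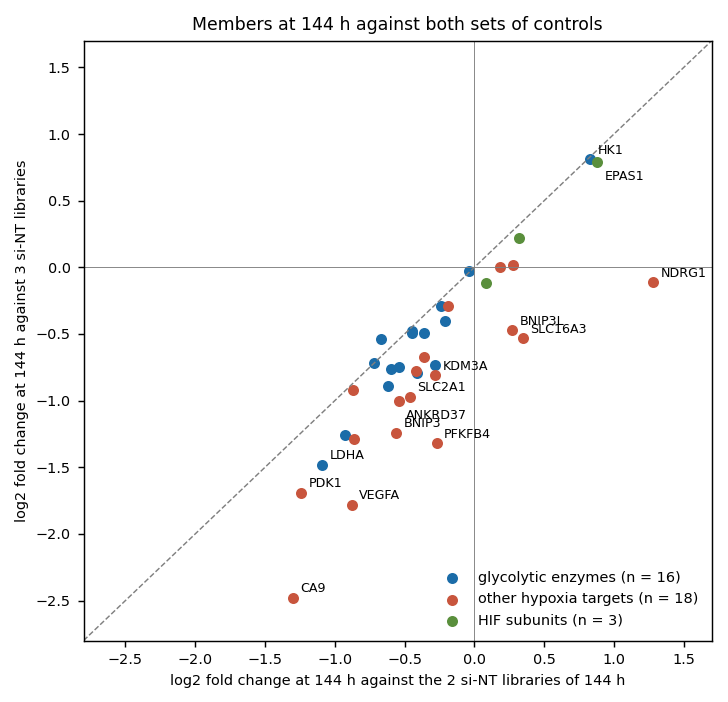
Log2 fold change of each tested member at 144 h against the 2 si-NT libraries of 144 h (x axis) and against 3 si-NT libraries, both of 72 h and replicate 1 of 144 h (y axis), with a dashed line of equality. Most red points (other targets) and several blue ones lie under the line, NDRG1 farthest (1.28 and -0.11), with HK1 and EPAS1 at the upper right and CA9 lowest.

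Prolonged depletion was also compared with shorter depletion within the BRG1 depleted cells. Between 144 h and 72 h, 6 of 37 members differed in limma, against 4.27% of all genes. HK1 was higher by 0.52 ± 0.09 (adjusted p = 0.00928, limma), and GAPDH, ENO1, LDHA, PDK1 and EGLN3 were lower. LDHA fell by 0.94 and PDK1 by 1.02 on the log2 scale. This count was 10 without replicate 1 of siRNA 2 at 72 h, 4 without either si-NT library of 144 h, 3 without replicate 1 of siRNA 3 at 144 h, and 1 without either siRNA 3 library of 72 h, either siRNA 2 library of 144 h or replicate 2 of siRNA 3 at 144 h. The change after depletion did not itself differ between time points for any member (0 of 37 in limma, against 0.0184% of all genes, 3 with an unadjusted p under 0.05, HK1, LDHB and EPAS1), so a larger effect at 144 h was not shown for single genes. For HK1 the difference between the 2 changes was 0.55 with a 95% interval from 0.23 to 0.88 (adjusted p = 0.249, limma).

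No member was called different between the siRNAs. Against si-NT at 144 h, siRNA 2 alone called 10 of 37 members and siRNA 3 alone 9, against 21.3% and 20.2% of all genes, with the si-NT libraries shared. Between the siRNAs 0 members differed at 72 h and 0 at 144 h in limma, against 0.141% and 0.331% of all genes. An unadjusted p under 0.05 was found for 2 members each time, and for 8.33% and 13.3% of all genes. For LDHA the difference (siRNA 3 minus siRNA 2) at 144 h was 0.036 with a 95% interval from -0.69 to 0.77, and for PDK1 it was 0.09, from -0.76 to 0.95.

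Other genes of the same pathways were read from 2 further lists. Of 27 further genes of glycolysis and pyruvate use, 17 were tested and at 144 h 4 were lower and 4 higher, against 10.8% and 13.6% of all genes. PFKFB2, which makes the activator of phosphofructokinase in heart and other tissues, had 16.67 and 18.35 TPM in si-NT and 51.72 to 65.64 TPM after depletion, a log2 fold change of 1.74 ± 0.13 (adjusted p = 1.79e-05, limma). ADPGK, an ADP-dependent glucokinase, had 37.3 and 33.78 TPM in si-NT and 72.41 to 101.69 TPM after depletion. PFKFB2 and ADPGK were also called at 72 h, with log2 fold changes of 0.8 and 0.7. These 72 h calls were fragile, since both were lost with only the 6 libraries of the time point (adjusted p = 0.0758 and 0.0888, limma) and with spike-in scaling, that of PFKFB2 without si-NT 72 h replicate 1 (adjusted p = 0.114, limma), and that of ADPGK in 9 of 12 fits with a library left out, with no filter and with the replicate block (adjusted p = 0.0595 and 0.0534, limma). SLC16A1, the lactate transporter MCT1, had 66.37 and 69.1 TPM in si-NT and 32.48 to 39.3 TPM after depletion at 144 h, a log2 fold change of -0.91 ± 0.11 (adjusted p = 0.00033, limma). PDK3, a relative of PDK1, had a log2 fold change of -0.74 and LDHD, which acts on D-lactate, of 0.79. Scaled to the spike-ins, ADPGK and LDHD had log2 fold changes of 0.92 and 0.4 at 144 h and did not pass (adjusted p = 0.114 and 0.47, limma).

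Of 37 further hypoxia genes, 32 were tested and at 144 h 5 were lower and 5 higher, against 10.8% and 13.6% of all genes, with a median log2 fold change of -0.06. These shares are near those of all genes. STC1, a secreted stanniocalcin, had 7.1 and 3.84 TPM in si-NT and 1.14 to 1.97 TPM after depletion (log2 fold change -1.32 ± 0.35, adjusted p = 0.0185, limma). TFRC, the transferrin receptor, fell by 1.03 and DDIT4, an inhibitor of mTORC1, by 0.93 on the log2 scale. The call of STC1 was lost without si-NT replicate 1 at 144 h (adjusted p = 0.185, limma) and with no filter (0.0538). That of DDIT4 (adjusted p = 0.0486, limma) was lost in 10 of 12 fits with a library left out, and with no filter (0.12), 6 groups (0.0512) and no trend (0.0599). CA12, a second surface carbonic anhydrase, was higher, with 19.09 and 21.04 TPM in si-NT and 33.58 to 45.88 TPM after depletion (log2 fold change 1, adjusted p = 0.000362, limma). INSIG2, a regulator of sterol synthesis, had a log2 fold change of 0.86, which did not pass without si-NT replicate 2 at 144 h (adjusted p = 0.0583, limma). Scaled to the spike-ins, CA12 and INSIG2 had log2 fold changes of 0.61 and 0.47 and did not pass (adjusted p = 0.207 and 0.345, limma). For DDIT4 and STC1, as for 28 of the 37 members, si-NT replicate 2 at 144 h was the lowest control library.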

How the data were processed

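RNA from LNCaP cells given si-NT or either siRNA against SMARCA4 was sequenced in 12 libraries. The authors added ERCC spike-ins, made stranded mRNA libraries, aligned reads to hg19 (GRCh37) with STAR (2.4.0j, per the submitters' processing notes, which also list Trim Galore 0.11.2 and FastQC), counted them with featureCounts and deposited TPM. The paper also reports using the spike-ins to normalise its read counts. Every library has the same TPM total with the spike-ins included, so TPM measures shares of RNA, and depth is unknown. The main fit used TPM without scaling to the spike-ins, so it does not follow the paper in this step. Such scaling was run as an alternative, and whether it matches the paper's normalisation was not tested. Columns of siRNA 2 and siRNA 3 were matched to the BRG1 depleted group of their time point, because the labels number the siRNAs differently and give both numbers for 1 library at 72 h.

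log2(TPM + 1) was fitted for the 16337 genes that reached 1 TPM in 2 or more libraries using limma 3.58.1 (lmFit, eBayes with trend, R 4.3.3) in 4 groups, with Benjamini-Hochberg adjustment over all genes. Fold changes are on this scale, and called means an adjusted p under 0.05. siRNAs were compared in 6 groups. The procedure was tested on simulated data. Counts over lists have no test. The members and lists were chosen with earlier results of these data known. Named genes are SMARCA4, the 38 members and, of each further list, the 5 called genes with the largest change at 144 h. Alternatives were a pseudocount of 0.1, no filter, a mean TPM of at least 5, 3 other scalings, the replicate block, other sets of libraries, no trend, stricter limits and each library left out. Coordinates are from GENCODE release 44 lifted to GRCh37. Reads of named pseudogene copies, present for 16 members, came to at most 1.5% of the gene's TPM. Figures were drawn with matplotlib 3.10.9 (Python 3.11.15, pandas 2.3.3).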

Additional observations from a re-analysis of the deposited data

Results flagged for a closer look

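Within the groups of 4 depleted libraries, 6 of 96 sets of values held 1 library far from the other 3, where chance gives about 1 in 20. At 144 h, PGK1 was at 290.37 TPM in siRNA 3 replicate 1 against 294.13 TPM for the next, a small gap among values that lay close together. BNIP3 was at 118.68 TPM in siRNA 3 replicate 2 at 144 h against 128.34 TPM for the next. At 72 h, replicate 2 of siRNA 2, the library with the highest hypoxia targets, was also far above the rest for HIF1A (90.31 TPM against 66.68 TPM), ADPGK (68.09 TPM against 55.27 TPM) and INSIG2 (43.99 TPM against 33.15 TPM). EPAS1 was at 1.19 TPM in siRNA 3 replicate 1 at 72 h against 0.67 TPM.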

How the results depend on the processing

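With TPM alone, depth and counting error are unknown, and 2 si-NT libraries per time point limit each comparison. The 13 members called at 144 h became 2 beyond a log2 fold change of 1, where 680 of 16337 genes were called. They became 6 at an adjusted p under 0.01, for which no count over all genes is given. With si-NT of both time points combined they were 23, against 30.7% of all genes. With 3 si-NT libraries combined, which was chosen after seeing the data, they were 28, against 24.4%. Enzymes lower were then 14 with the 3 libraries, and other targets lower were 9 and 12, or 5 with only the 6 libraries of the time point. Members higher were 1 with a mean TPM of at least 5. At 72 h the combined si-NT libraries called 1 member, and without a filter 1 member differed between depleted time points. With each library left out, members called ranged from 4 (without si-NT 144 h replicate 1) to 15 at 144 h, with 6 without si-NT 144 h replicate 2, and from 0 to 1 at 72 h (1 without siRNA 2 72 h replicate 2). Enzymes lower ranged from 1 to 10 (1 and 3 without the first or second si-NT replicate of 144 h), other targets lower from 1 to 3, members higher from 1 to 2, and members differing between depleted time points from 1 (without siRNA 3 72 h replicate 1) to 10. Leaving out a si-NT library leaves 1 control at its time point, taken to vary like the other groups. Fewer of all genes were then called at that time point as well, and other causes were not tested. Without si-NT 144 h replicate 1 the share of members called at 144 h was near that of all genes.

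The paper reports a spike-in normalisation of its read counts, which the main fit leaves out. Scaling to the spike-ins moved the median of all genes from 0.06 to -0.11 at 72 h and from 0.026 to -0.31 at 144 h. It left 6 members called at 144 h (PFKP, GAPDH, LDHA, LDHB, PDK1 and EGLN3), 4 enzymes lower, 0 members higher and 0 differing between depleted time points in limma. Of all 16337 genes tested, 752 were called at 144 h with this scaling, against 3983 without it. HK1 was then at 0.42, or 0.74 relative to the median (adjusted p = 0.378, limma), LDHA at -1.49 and -1.18 relative. EPAS1 was at 0.69, or 1.01 relative to the median, and also lost its call (adjusted p = 0.176, limma). Signs turned for HIF1A (-0.08), ARNT (-0.3), SLC16A3 (-0.029), EGLN1 (-0.21), P4HA2 (-0.11) and BNIP3L (-0.13) at 144 h, all 6 above the median of all genes, and at 72 h for HIF1A (-0.16), ARNT (-0.16) and EGLN1 (-0.18). These 3 also turned with median-of-ratios factors (-0.036, -0.042 and -0.06) and quantile normalisation (-0.0037, -0.035 and -0.028). With si-NT combined, P4HA2 (0.018), BNIP3L (0.05), NDRG1 (0.17) and INSIG2 (0.034) turned at 72 h and ARNT (-0.037), SLC16A3 (-0.14) and BNIP3L (-0.17) at 144 h. With 3 si-NT libraries, ARNT (-0.12), SLC16A3 (-0.53), BNIP3L (-0.47) and NDRG1 (-0.11) turned at 144 h. With 1 library left out, signs turned at 72 h for HIF1A (-0.35 to 0.42), EPAS1 (-0.16 to 0.33), ARNT (-0.16 to 0.21), EGLN1 (-0.14 to 0.1), HILPDA (-0.36 to 0.16) and BNIP3L (-0.83 to 0.033), and at 144 h for ALDOC (-0.68 to 0.12), PFKFB4 (-0.94 to 0.4), KDM3A (-0.59 to 0.026), ARNT (-0.038 to 0.2), SLC16A3 (-0.33 to 1.03) and BNIP3L (-0.17 to 0.72).

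The difference between replicate 2 and replicate 1 was little shared between conditions, and 2 of 15 pairs of conditions had a correlation over 0.1 (range -0.23 to 0.3). Such correlations cannot tell whether libraries of the same replicate number were handled together. With the replicate block, 179 and 3692 of all genes were called at 72 h and 144 h. Among the members only GPI lost its call at 144 h with the block (adjusted p = 0.0623, limma).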
